A study of Setaria viridis with 9 samples.

Results

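Among 9 leaf RNA libraries of the grass Setaria viridis, 3 held little PGR5 transcript and were compared with 3 that held much of both PGR5 and NdhO transcript. Libraries were placed by those transcript levels and not by their genotype labels, at a threshold of 100 CPM (a gene's count scaled to the library's total). The PGR5-low set holds the libraries labelled WT 2, WT 3 and ndhO 1, and the high-in-both set holds those labelled ndhO 2, ndhO 3 and pgr5 1. The other 3 libraries, labelled WT 1, pgr5 2 and pgr5 3, were low in NdhO and are used below as the NdhO-low set. The comparison therefore covers 6 of 9 libraries, and each set mixes labels: the PGR5-low set has 2 libraries labelled WT, 1 labelled ndhO and 0 labelled pgr5. Every difference below is a difference between transcript-defined sets. The levels went against the labels: PGR5 was low in 0 of the 3 libraries labelled pgr5, NdhO was low in 0 of the 3 labelled ndhO, and each of the 3 labelled WT was low in PGR5 or NdhO. Why levels and labels differ was not tested, and the files give no other reading of the plants' genotypes. Whether any difference below is one between genotypes was not tested.

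All plants were cultivar ME034V-1. The labels name wild type (WT), gene-edited plants carrying null alleles of NdhO, and gene-edited plants carrying null alleles of PGR5, with 3 biological replicates each. They were grown in a chamber with 16 h of light and 8 h of dark, an irradiance of 380 µmol per square metre and second, and 28 °C by day and 22 °C by night. Plant age is given as 3 to 4 weeks. Leaf discs were frozen in constant light, and the labels give the tissue as whole leaf. The labels do not say how many edited lines the null plants came from.

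PGR5 is a small protein of the chloroplast thylakoid that works with PGRL1 in the return of electrons from photosystem I to the plastoquinone pool, a loop called cyclic electron flow. NdhO belongs to the NDH complex, a thylakoid NADH dehydrogenase-like enzyme that carries the other known route of that loop. Cyclic flow makes ATP without net NADPH, and C4 grasses such as Setaria, which concentrate CO2 in bundle sheath cells, spend additional ATP on that pump.

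In the libraries labelled WT 2, WT 3 and ndhO 1, PGR5 (LOC117861247, SEVIR_6G259600v2) was at 44.1, 45.1 and 39.7 CPM. It stood at 299, 323 and 285 CPM in ndhO 2, ndhO 3 and pgr5 1. In the NdhO-low libraries it stood at 389, 259 and 389 CPM. The highest value under the threshold was 45.1 CPM and the lowest above it was 258.8 CPM, so no library lay near the threshold. These values placed the libraries and are given without a test. PGR5 transcript was not absent from the PGR5-low set, where 602, 523 and 556 reads were counted.

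NdhO (LOC117858157, SEVIR_5G467100v2) stood at 585, 242 and 255 CPM in the PGR5-low libraries, in the order above. It stood at 417, 426 and 419 CPM in the high-in-both libraries. It reached 45.9, 21.2 and 48.5 CPM in the NdhO-low libraries. In the PGR5-low set, then, NdhO was above every high-in-both library in WT 2 and below all of them in WT 3 and ndhO 1. The highest NdhO value under the threshold was 48.5 CPM and the lowest above it was 242.3 CPM.

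**Figure D1:**
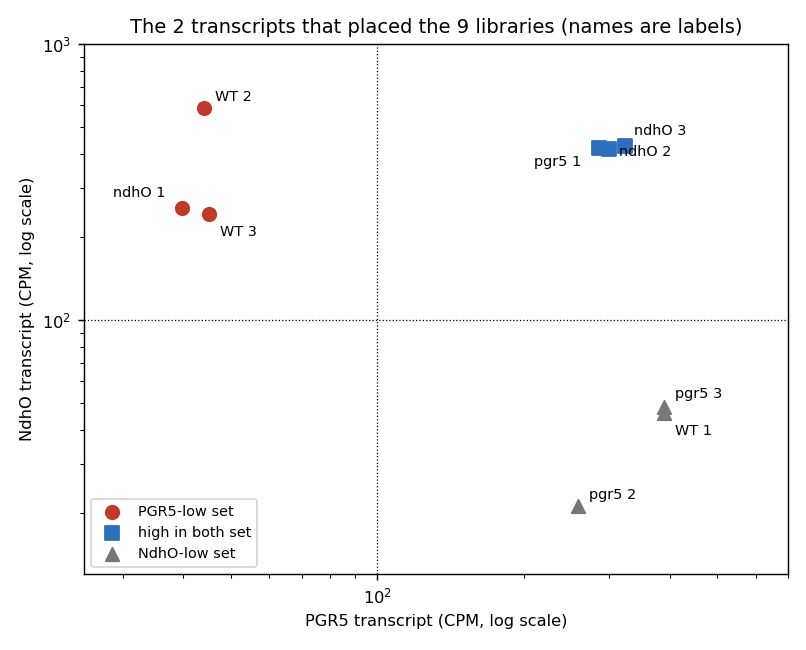
PGR5 transcript (x axis) against NdhO transcript (y axis) in CPM on log scales, with 1 point per library named by its label and dotted lines at 100 CPM. The 3 PGR5-low libraries sit between 39.7 and 45.1 CPM of PGR5, and the other 6 sit at 258.8 CPM or above.

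The PGR5-low libraries were shallower than the high-in-both ones, with totals of 11606570 to 14015773 against 14209173 to 18837265 counts. They also differed more among themselves: the Spearman correlation across genes was 0.952 to 0.963 between PGR5-low libraries, and 0.976 to 0.977 between high-in-both libraries. Between the sets it ran from 0.955 to 0.971. The part of depth in the differences below was not tested. In whole-leaf RNA, fewer cells of a type and less RNA per cell cannot be told apart.

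Few genes separated the sets. Of 17968 genes tested besides PGR5 and NdhO, 24 were higher in the PGR5-low set, which is 0.134% of them. Another 4 were lower, or 0.0223% (edgeR quasi-likelihood test, Benjamini-Hochberg adjusted p under 0.05). The 3 values of each set did not overlap for any of these 28 genes. An unadjusted p under 0.05 was reached by 583 genes higher and 439 lower. DESeq2 called 81 higher and 21 lower on the same counts, among them all 24 and all 4, and limma-voom called 9 and 1. The number lower fell to 1 without the library labelled ndhO 2. It was 2 without WT 2, ndhO 1, ndhO 3, pgr5 1 or pgr5 2. Over all genes the median log2 fold change was 0.001, with quartiles of -0.22 and 0.21. The table's gene descriptions call 11 of the 24 and 3 of the 4 uncharacterized, against 22.3% of all genes tested. RefSeq classes 15 of the 24 as protein-coding, 3 as long noncoding RNA, 2 as pseudogenes and 1 as other RNA, while 3 were not matched. Over all genes tested those shares were 91.9% protein-coding, 3.49% long noncoding RNA, 1.91% pseudogenes and 0.239% other RNA, with 2.39% not matched.

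**Figure D2:**
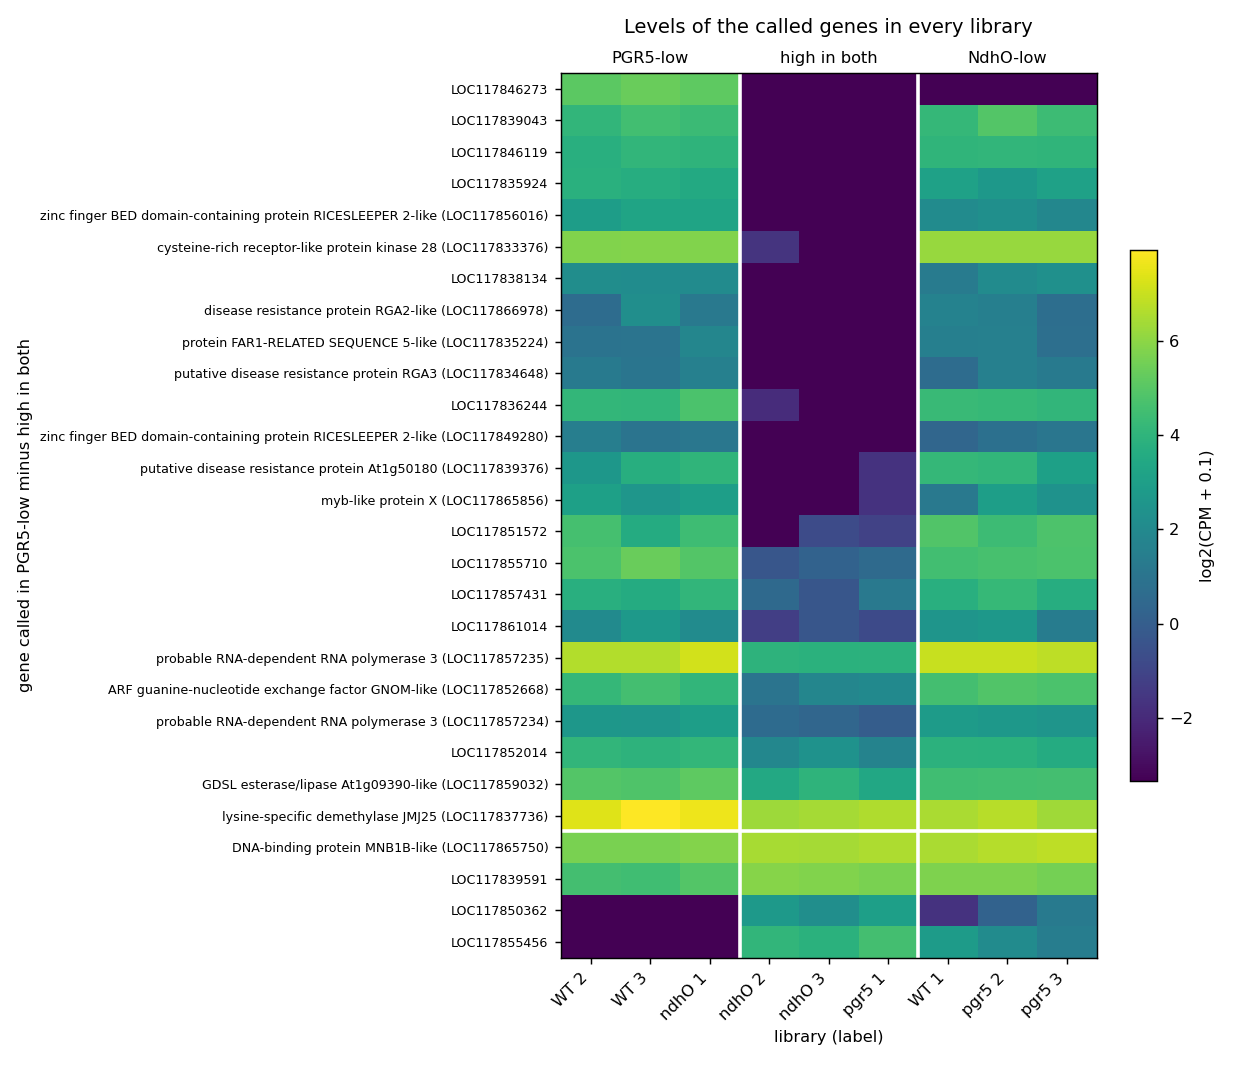
Colour gives log2(CPM + 0.1) of the 28 genes that passed the test (rows, 24 higher above the white line and 4 lower beneath it) in each of the 9 libraries (columns, grouped by set). LOC117846273 is at 0 in the 6 libraries outside the PGR5-low set, while CRK28 is near 0 in the high-in-both libraries alone.

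The clearest separation among named genes was in a cell-surface kinase. CRK28 (LOC117833376, SEVIR_8G235000v2) belongs to the cysteine-rich receptor-like kinases, a plant family that includes members acting in immune and oxidative signalling. It stood at 56.0, 57.2 and 55.7 CPM in the PGR5-low libraries and at 0.22, 0 and 0 CPM in the high-in-both ones. The pooled counts were 2209 against 4, a ratio of 720 with a 95% counting interval of 281 to 2646. The adjusted p was 8.44e-06 in edgeR's test. The NdhO-low libraries stood at 72.5, 71.8 and 72.1 CPM. So the transcript was close to missing in 3 libraries and present at a narrow range of levels in the other 6. Its difference between the PGR5-low and NdhO-low sets did not pass (log2 fold change -0.34, SE 0.24, adjusted p = 0.701). CRK28 was the single gene called among 93 receptor-like kinases with cysteine-rich or lectin domains, a list drawn up after this call had been seen. Calls of higher genes made up 0.134% of all genes tested.

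Genes of RNA silencing and chromatin contributed 3 calls, all higher, of 74 tested, in a list that was also drawn up after calls had been seen. The share called higher over all genes tested was 0.134%. RNA-dependent RNA polymerases copy single-stranded RNA into double-stranded RNA, the starting material of small silencing RNAs. The gene for a probable RNA-dependent RNA polymerase 3 (RdRP3; LOC117857235, SEVIR_5G138400v2) stood at 97.6, 98.0 and 141 CPM in the PGR5-low set. It stood at 15.5, 14.3 and 15 CPM in the high-in-both set. The log2 fold change was 2.83 (SE 0.16, adjusted p = 1.37e-05, edgeR). The NdhO-low libraries were at 124, 127 and 111 CPM, with a log2 fold change of 2.92 (SE 0.16) against the same 3 high-in-both libraries. RefSeq classes this locus as a transcribed RNA that is not protein-coding.

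A second gene with the same description, LOC117857234, moved the same way at a lower level. It stood at 6.08, 5.94 and 7.78 CPM against 1.43, 1.2 and 0.902 CPM (log2 fold change 2.41, SE 0.31, adjusted p = 0.00851, edgeR). Its NdhO-low values were 7.06, 6.24 and 5.79 CPM. The PGR5-low and high-in-both sets did not overlap for either gene. Their copies may share reads, and how the authors' counting assigned such reads is unknown, so the level of each is uncertain. The second gene's call was lost without ndhO 1, without ndhO 3 or without pgr5 1, and its highest adjusted p over all settings was 0.17.

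The third of these calls did set the PGR5-low libraries apart from all 6 others. JMJ25 (LOC117837736, SEVIR_9G410200v2) is described as a lysine-specific demethylase, of a family of enzymes that take methyl groups off histones. It stood at 166, 242 and 199 CPM in the PGR5-low libraries. It stood at 77.3, 85.8 and 94.7 CPM in the high-in-both libraries and at 89.4, 104 and 79.2 CPM in the NdhO-low ones. Every PGR5-low library was above every other library, while the remaining sets overlapped. The log2 fold change was 1.16 (SE 0.15, adjusted p = 0.00806, edgeR) against the high-in-both set. Against the NdhO-low set it was 1.17 (SE 0.15, adjusted p = 0.013). The call against the high-in-both set missed the threshold without ndhO 2 (adjusted p = 0.0798) or ndhO 3 (adjusted p = 0.0688), with the log2 fold change at 1.10 and 1.16. It also missed it with the genotype label as a term (adjusted p = 0.22, log2 fold change 1.15) and with the labels' replicate number as a term, the replicate block (adjusted p = 0.0983).

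Other silencing and chromatin genes whose sets did not overlap did not pass the test. DNA (cytosine-5)-methyltransferase 1B (LOC117843086), of the enzyme class that adds methyl groups to DNA, stood at 2.79, 3.7 and 4 CPM against 1.43, 1.34 and 1.06 CPM (log2 fold change 1.37, SE 0.42, adjusted p = 0.679). A second JMJ25-like gene (LOC117834201) stood at 2.86, 4.22 and 6.06 CPM against 2.04, 0.774 and 0.849 CPM (log2 fold change 1.74, SE 0.47, adjusted p = 0.553). Of the 74 genes, 10 (13.5%) lay above the high-in-both set in every PGR5-low library and 3 (4.05%) below it. The 10 include the 3 called genes, and the list was drawn up after calls had been seen. These shares are therefore not independent of those calls. Over all genes the shares were 8.04% above (1444 genes) and 4.42% below (795 genes).

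Immune receptors of the NLR kind, which detect pathogen proteins inside the cell, gave 3 calls of 236 tested, all higher. Over all genes tested 0.134% were called higher. The putative disease resistance gene At1g50180-like LOC117839376 (SEVIR_9G380550v2) stood at 6.16, 13.1 and 16.2 CPM in the PGR5-low set and at 0, 0 and 0.212 CPM in the high-in-both set. The pooled counts of 463 and 4 gave a ratio of 151 with a 95% counting interval of 58.6 to 557 (adjusted p = 0.00272, edgeR). The NdhO-low libraries stood at 17.9, 16.7 and 8.37 CPM and overlapped the PGR5-low ones. This call held in edgeR whichever library was left out, and was lost with the genotype label as a term (adjusted p = 0.0819) and in limma-voom (adjusted p = 0.817).

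The remaining NLR calls were a pair of neighbours at low counts. The genes for RGA3 (LOC117834648, SEVIR_8G246200v2) and RGA2-like (LOC117866978, SEVIR_8G246100v2) stand next to each other in RefSeq's gene order. RGA3 stood at 2.27, 1.98 and 2.85 CPM against 0, 0 and 0 CPM, and RGA2-like at 1.47, 4.57 and 2.21 CPM against 0, 0 and 0 CPM. The NdhO-low libraries overlapped the PGR5-low ones, at 1.47, 2.84 and 2.4 CPM for RGA3 and 3.1, 2.76 and 1.58 CPM for RGA2-like. A floor of 3 counts over the 3 high-in-both libraries makes RGA3 at least 40.9-fold higher and RGA2-like at least 45.2-fold higher (adjusted p = 0.0298 and 0.0332, edgeR). The RGA3 call was lost when any of the 9 libraries was left out, with adjusted p between 0.0582 and 0.155. The RGA2-like call was lost without each library other than pgr5 3, with the highest adjusted p over all settings at 0.707.

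The other NLR genes did not pass in edgeR. The median log2 fold change of the 236 was 0.18, beside 0.001 over all genes, and for the NdhO-low set against the same high-in-both libraries it was 0.23. In 37 (15.7%) every PGR5-low library lay above the high-in-both set, against 8.04% of all genes, and in 2 (0.847%) below it, against 4.42%. The next lowest adjusted p among them belonged to At3g14460-like LOC117847911, at 12.8, 19.1 and 17.6 CPM against 4.35, 3.1 and 6 CPM (log2 fold change 1.80, SE 0.30, adjusted p = 0.0655). Without WT 2 that median was 0.27, and without ndhO 1 it was 0.10. The summed level of the list was 2417, 3297 and 3340 CPM in WT 2, WT 3 and ndhO 1, against 2413, 2460 and 2716 CPM. The library labelled WT 2 therefore lay with the high-in-both set on this list.

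Genes derived from transposases gave 3 calls of 48 tested, all higher, again in a list drawn up after calls had been seen. Among all genes tested 0.134% were called higher. RICESLEEPER-type and FAR1-related genes descend from mobile DNA, and some FAR1 relatives act in light signalling in Arabidopsis. RICESLEEPER 2-like LOC117856016 stood at 7.62, 9.31 and 9.28 CPM against 0, 0 and 0 CPM, at least 149-fold higher (adjusted p = 9.95e-05, edgeR). Its NdhO-low values of 4.24, 4.7 and 3.57 CPM lay between the other sets. A second RICESLEEPER 2-like gene, LOC117849280, stood at 2.71, 1.9 and 2.07 CPM against 0, 0 and 0 CPM, at least 38.3-fold higher (adjusted p = 0.0492, edgeR). FAR1-RELATED SEQUENCE 5-like LOC117835224 stood at 1.83, 1.9 and 3.5 CPM against 0, 0 and 0 CPM, at least 41.7-fold higher (adjusted p = 0.0298, edgeR). In the NdhO-low libraries LOC117849280 stood at 1.2, 1.7 and 2.05 CPM and LOC117835224 at 2.82, 2.84 and 1.64 CPM.

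Leaving out libraries affected these genes unequally. The call of LOC117856016 held in every fit by edgeR and DESeq2 and was lost in limma-voom (adjusted p = 0.098). The call of LOC117835224 was lost without each library other than pgr5 3, with adjusted p from 0.0666 to 0.155. The call of LOC117849280 was lost without each of the 9, with the highest adjusted p over all settings at 0.543. Of the 48 genes, 12 (25%) lay above the high-in-both set in every PGR5-low library, against 8.04% of all genes. Below it lay 0, against 4.42%. The 12 include the 3 called genes that were seen before the list was drawn up. The median log2 fold change was 0.10, and it was also 0.10 for the NdhO-low set against the same high-in-both libraries. The summed level of the list was 673, 911 and 833 CPM in WT 2, WT 3 and ndhO 1, against 661, 683 and 702 CPM. The library labelled WT 2 therefore lay with the high-in-both set on this list as well.

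Outside these lists, a gene of membrane traffic was higher. The GNOM-like ARF guanine-nucleotide exchange factor (LOC117852668, SEVIR_4G250600v2) is of the class that switches on ARF proteins, which form transport vesicles. It stood at 17.9, 23.6 and 17.0 CPM in the PGR5-low set and at 1.93, 3.52 and 3.93 CPM in the high-in-both set (log2 fold change 2.57, SE 0.26, adjusted p = 0.00145, edgeR). The NdhO-low libraries, at 23.5, 29.3 and 26.6 CPM, lay with or above the PGR5-low ones. A gene named myb-like protein X (LOC117865856) stood at 8.21, 5.86 and 7.85 CPM against 0, 0 and 0.212 CPM, a pooled ratio of 94.6 (counting interval 36.5 to 349, adjusted p = 0.0112, edgeR). Its NdhO-low values were 2.23, 7.86 and 5.27 CPM. Its call was lost without WT 2, ndhO 1, ndhO 2 or ndhO 3, with the highest adjusted p over all settings at 0.792.

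An epidermal list held 1 call of 74, a higher one, where 0.134% of all genes tested were called higher. The GDSL esterase/lipase LOC117859032 (SEVIR_5G156200v2) is of a family whose members include enzymes of cutin and lipid turnover. It stood at 30.3, 28.2 and 34.7 CPM against 10.9, 15.6 and 10.7 CPM (log2 fold change 1.26, SE 0.19, adjusted p = 0.0283, edgeR). The NdhO-low libraries stood between the other sets at 22.2, 22.7 and 23.5 CPM. The call was lost without WT 1, WT 2, ndhO 1, ndhO 2 or pgr5 1, where the adjusted p ran from 0.0582 to 0.2. It was lost as well with the genotype label as a term (0.22), with the replicate block (0.172) and with the 6 libraries alone (0.061). The median log2 fold change of the epidermal list was -0.23, so this gene went against the list's median.

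**Figure D3:**
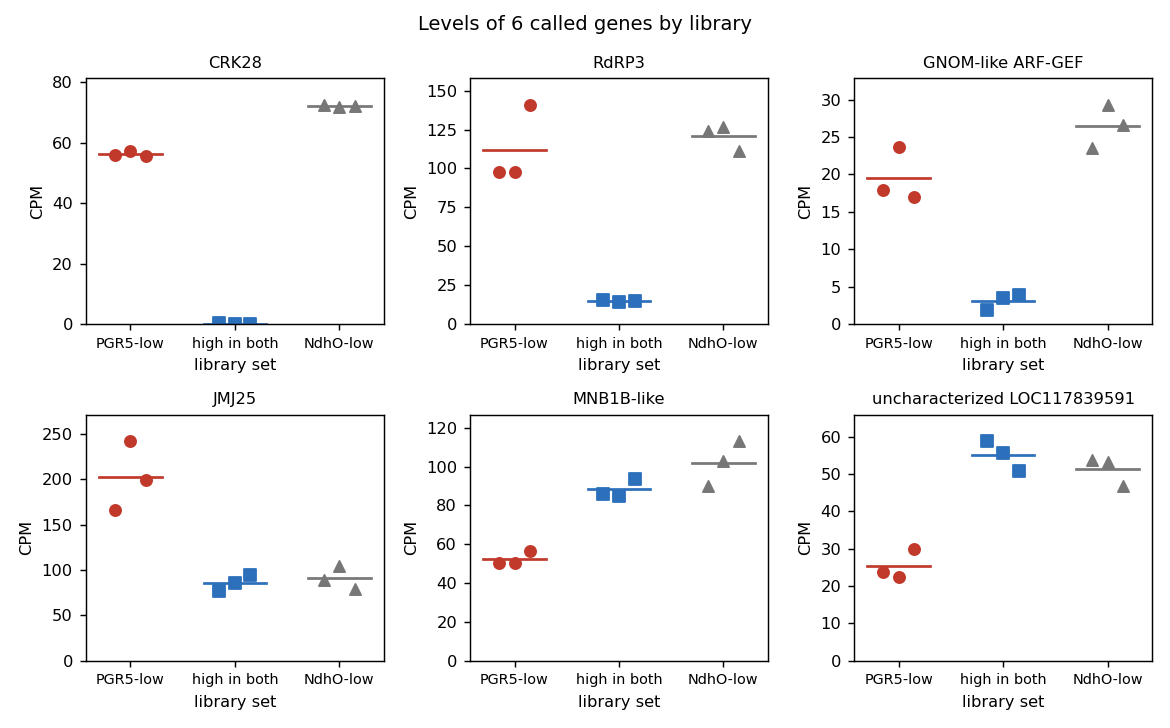
CPM of 6 called genes in each library (points), with the mean of the 3 libraries of a set as a line and each axis starting at 0. CRK28, RdRP3 and the GNOM-like gene are high in both low sets, while JMJ25, the MNB1B-like gene and LOC117839591 set the PGR5-low libraries apart from the other 6.

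Fewer genes were lower in the PGR5-low set. MNB1B-like (LOC117865750, SEVIR_7G211900v2) is described as a DNA-binding protein, and MNB1B of maize is a chromatin-associated HMG-box protein. It stood at 50.2, 50.5 and 56.7 CPM in the PGR5-low libraries. It stood at 86.1, 85.0 and 93.6 CPM in the high-in-both libraries and at 90.0, 103 and 113 CPM in the NdhO-low ones. Each PGR5-low value was below each of the other 6. The log2 fold change was -0.82 (SE 0.13, adjusted p = 0.0379, edgeR) against the high-in-both set and -0.94 (SE 0.13, adjusted p = 0.0189) against the NdhO-low set. The call against the high-in-both set was lost without each library other than WT 1 and pgr5 3, with adjusted p from 0.068 to 0.198, while the log2 fold change stayed between -0.86 and -0.77. The adjusted p was 0.63 with the genotype label as a term, 0.277 with the replicate block and 0.0857 in limma-voom.

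The other 3 lower genes are uncharacterized and were named after their values were seen. LOC117839591 (SEVIR_1G341100v2) stood at 23.8, 22.4 and 29.9 CPM against 58.7, 55.5 and 50.9 CPM. The NdhO-low libraries were at 53.6, 53.1 and 46.9 CPM, with the high-in-both ones. The log2 fold change was -1.19 (SE 0.15, adjusted p = 0.00647, edgeR), and without ndhO 2 it was -1.13 with an adjusted p of 0.0508. The call was also lost with the genotype label as a term (adjusted p = 0.132) and with the replicate block (adjusted p = 0.054).

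LOC117855456 (SEVIR_5G190200v2) was not counted in any PGR5-low library. It stood at 16.9, 14.6 and 23.6 CPM in the high-in-both libraries and at 7.12, 4.13 and 2.63 CPM in the NdhO-low ones. The 3 sets were thus in order with no overlap. With a floor of 3 pooled counts it was at least 246-fold lower in the PGR5-low than in the high-in-both set (adjusted p = 0.000517 in edgeR and 0.554 in limma-voom). LOC117850362 (SEVIR_3G293300v2) stood at 0.217, 1.05 and 2.34 CPM in the NdhO-low libraries. Also at 0 counts in the PGR5-low set, it stood at 6.55, 4.57 and 7.91 CPM in the high-in-both set, which makes it at least 85.1-fold lower (adjusted p = 0.0411, edgeR). That call was lost without each library other than WT 1 and pgr5 3, with adjusted p from 0.0985 to 0.195, and likewise with the genotype label as a term (0.252), with the replicate block (0.318) and in limma-voom (0.639).

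Presence against absence of a transcript was the commonest form of the called differences. Of the 24 genes higher, 10 had 0 counts in all 3 high-in-both libraries and 4 had 1 to 9 counts in all. The pseudogene LOC117846273 stood at 34, 41.3 and 34.5 CPM in the PGR5-low libraries and at 0 in the 6 others, with 1426 pooled counts. That is at least 620-fold higher than in the high-in-both set (adjusted p = 9.95e-05, edgeR). The long noncoding RNA LOC117839043 and the unmatched LOC117846119 were at least 336-fold and at least 261-fold higher. In contrast to the pseudogene, LOC117846119 stood at 16.1, 16.7 and 16.4 CPM in the NdhO-low set, beside 13.6, 16.8 and 15.7 CPM in the PGR5-low set. Likewise LOC117839043 stood at 18.1, 29.8 and 20.8 CPM in the NdhO-low set, beside 16.8, 22.6 and 20.1 CPM in the PGR5-low set. The uncharacterized LOC117855710 was counted in every library, at 26.5, 40.3 and 29.8 CPM in the PGR5-low set and at 0.715, 1.06 and 1.38 CPM in the high-in-both set (log2 fold change 4.85, SE 0.25, adjusted p = 1.01e-05, edgeR). Its NdhO-low values were 22.6, 25.3 and 26.6 CPM. All 4 of these were named after their values were seen.

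Of the 17968 genes tested, called ones included, 29 had at least 10 counts in each PGR5-low library and 0 counts in each high-in-both library. Of these 29, 16 also had at least 10 counts in each NdhO-low library, and 6 were at 0 counts there. In the reverse direction 9 genes were at 0 counts in the PGR5-low set. Of these 9, 3 had at least 10 counts in each NdhO-low library and 1 was at 0 counts there. Of these 38 genes, 16 are uncharacterized.

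Levels of many such genes were low. Among described ones, DIMBOA UDP-glucosyltransferase BX9-like (LOC117843127), of a class that adds glucose to a grass defence compound, stood at 1.91, 1.03 and 1.14 CPM against 0, at least 23.5-fold higher (adjusted p = 0.24). The pseudogene-class ACTIVITY OF BC1 COMPLEX KINASE gene LOC117866567 stood at 0 against 3.08, 4.43 and 2.55 CPM, at least 42.7-fold lower (adjusted p = 0.553). Neither passed the test, and both are named after their values were seen.

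In 371 genes (2.06%) every PGR5-low library was above every other library, and in 219 (1.22%) every one was below. A gap of at least 2-fold remained in 17 and 11 of these. The long noncoding RNA LOC117847748 stood at 52, 53.1 and 57.6 CPM in the PGR5-low set and at 0, 0 and 2.87 CPM in the high-in-both set, yet did not pass the test (adjusted p = 0.322). Its NdhO-low values were 2.17, 2.43 and 0.351 CPM. Acetyl-CoA acetyltransferase (LOC117859175), a cytosolic enzyme that joins acetyl units, stood at 9.97, 14.8 and 9.85 CPM against 3.47, 3.87 and 2.92 CPM (log2 fold change 1.67, adjusted p = 0.319). Both were named after their values were seen.

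Both low sets were compared with the same 3 high-in-both libraries. The NdhO-low values of the called genes named above are therefore given side by side, and calls shared by these comparisons are not counted. The NdhO-low set against the high-in-both set gave 43 genes higher (0.239%) and 26 lower (0.145%). The difference between both low sets was tested directly. It passed for 17 genes higher in the PGR5-low set (0.0946%) and 16 lower (0.089%). That count of 17 was 2 without ndhO 1 and 56 without pgr5 2, and it was 0 with the genotype label as a term or with the replicate block.

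The photosynthesis genes that surround PGR5 in its pathway gave no call. PGRL1A (LOC117840897, SEVIR_9G004600v2), the thylakoid partner of PGR5, stood at 1874, 1537 and 1301 CPM in the PGR5-low libraries. It stood at 1828, 1612 and 1797 CPM in the high-in-both libraries, and the sets overlapped (log2 fold change -0.21, SE 0.19, adjusted p = 0.981, edgeR). All 3 tested genes of that route besides PGR5 had values below 0, with a median log2 fold change of -0.21 (-0.37 without WT 2 and -0.08 without ndhO 1), and 0 reached an unadjusted p under 0.05.

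The NDH complex and its assembly factors gave 0 calls of 20 tested in edgeR and in DESeq2, with a median log2 fold change of -0.21 and 1 gene at an unadjusted p under 0.05. Without WT 3 that median was -0.04, and without WT 2 it was -0.61. The subunit PnsB5 (LOC117856781) was the most abundant, at 937, 516 and 775 CPM against 665, 757 and 871 CPM (log2 fold change -0.09, SE 0.24). NdhM (LOC117864460), at 456, 384 and 383 CPM against 539, 459 and 535 CPM, had sets that did not overlap but did not pass (log2 fold change -0.39, adjusted p = 0.859).

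Photosystem and antenna genes likewise gave 0 calls in edgeR and in DESeq2. The 3 lists hold 10 photosystem I, 21 photosystem II and 15 antenna genes, with medians of -0.18, -0.37 and -0.13 and with 0, 3 and 0 genes at an unadjusted p under 0.05. The fitted value was below 0 for all 10, all 21 and 13 of the 15, against 49.8% of all genes. Photosystem II subunit S (LOC117859110, described as the 22 kDa protein), which triggers heat dissipation of excess light, stood at 811, 500 and 454 CPM against 1018, 822 and 818 CPM. Its sets did not overlap and it did not pass (log2 fold change -0.64, SE 0.27, adjusted p = 0.849). The chlorophyll a-b binding protein LOC117844591, at 12327, 8275 and 8145 CPM against 9656, 10706 and 10239 CPM, had sets that overlapped.

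These lists divided the PGR5-low libraries. The median photosystem I gene, taken as log2(CPM + 0.5) minus its own mean over the 9 libraries, was at 0.30 in WT 2, -0.39 in WT 3 and -0.39 in ndhO 1. For photosystem II the values were 0.19, -0.51 and -0.29, and for the antenna 0.34, -0.47 and -0.29. In the high-in-both libraries the same medians ran from -0.11 to 0.24. So the library labelled WT 2 lay above the high-in-both range for photosystem I and the antenna, and the other two PGR5-low libraries lay beneath it. Without WT 3 the median log2 fold changes of the 3 lists were -0.01, -0.12 and 0.04, so the antenna median changed sign. Without WT 2 they were -0.54, -0.75 and -0.44, and without ndhO 1 they were -0.04, -0.26 and -0.02.

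Other chloroplast lists gave 0 calls in edgeR as well, and DESeq2 called 1 gene, of chlorophyll and carotenoid synthesis. The median log2 fold change was -0.27 for thylakoid electron carriers and ATP synthase (17 genes) and -0.27 for photoprotection and photosystem II repair (29 genes). It was -0.25 for chlorophyll and carotenoid synthesis (54 genes) and -0.37 for chloroplast ribosomal proteins (41 genes). Without WT 3 these 4 medians were -0.18, -0.11, -0.08 and -0.10, and without WT 2 they were -0.38, -0.50, -0.51 and -0.70. In these 4 lists 1, 2, 5 and 0 genes reached an unadjusted p under 0.05. The Calvin-Benson cycle (35 genes) had a median of -0.22 with 1 such gene (-0.08 without WT 3 and -0.59 without WT 2), and its subunit B of glyceraldehyde-3-phosphate dehydrogenase (LOC117837837) stood at 8433, 6477 and 6503 CPM against 9229, 9826 and 8817 CPM without overlap (adjusted p = 0.899). Of the 21 photosystem II genes 5 (23.8%) lay below the high-in-both set in every PGR5-low library, as did 5 (14.3%) of the 35 Calvin-Benson genes, against 4.42% of all genes.

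**Figure D4:**
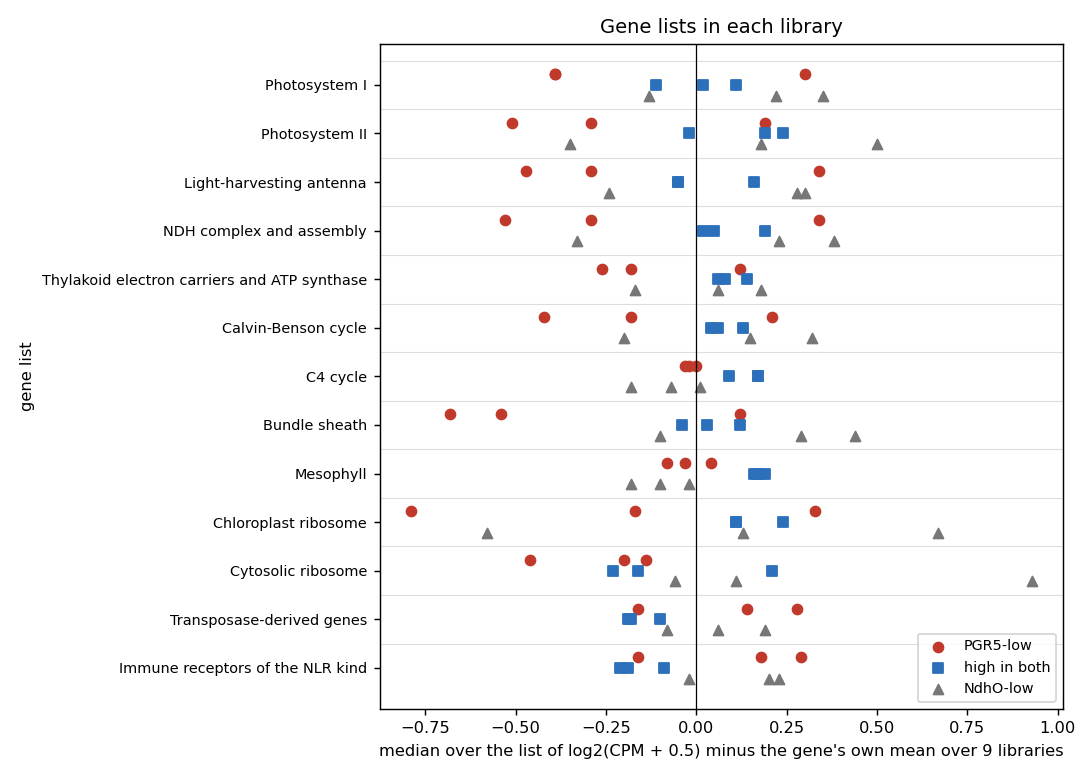
For 13 gene lists (rows), each point is a library: the median over the list of log2(CPM + 0.5) minus the gene's own mean over the 9 libraries, so 0 is that mean. For photosystem I the PGR5-low libraries fall at -0.39, -0.39 and 0.30, while the C4 and mesophyll lists show less spread among them.

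The C4 cycle, which captures CO2 in mesophyll cells, gave 0 calls of 28 in edgeR and 1 in DESeq2, with a median log2 fold change of -0.24 and 1 gene at an unadjusted p under 0.05. Pyruvate, phosphate dikinase 2 (LOC117850669), the enzyme that remakes phosphoenolpyruvate in mesophyll cells, stood at 34069, 51717 and 35721 CPM against 41738, 43637 and 43957 CPM (log2 fold change -0.17, SE 0.21). That median stayed between -0.28 and -0.19 when single libraries were left out. Phosphoenolpyruvate carboxylase kinase 2-like (LOC117836260, SEVIR_1G244600v2) is of the kinases that phosphorylate the carboxylase and ease its inhibition by malate. It stood at 23.7, 33.9 and 20.9 CPM in the PGR5-low set and at 75.9, 47.8 and 56.9 CPM in the high-in-both set. The NdhO-low libraries stood at 47.3, 54.6 and 45.5 CPM, so every PGR5-low value was below each of the other 6.

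That kinase gene missed the threshold in edgeR (log2 fold change -1.28, SE 0.21, adjusted p = 0.0597), and DESeq2 gave an adjusted p of 6.05e-05. It stayed above 0.05 in the other settings: the adjusted p was 0.128 in limma-voom, 0.513 with the genotype label as a term and 0.194 with the replicate block, and it ran from 0.0502 to 0.281 when single libraries were left out. It was named after its values were seen. Over the C4 list, 5 genes (17.9%) lay below the high-in-both set in every PGR5-low library and 1 (3.57%) above, against 4.42% and 8.04% of all genes. The 5 include LOC117855863, described as a chloroplastic-like carbonic anhydrase, of the enzymes that turn CO2 into bicarbonate, and classed by RefSeq as a pseudogene. It stood at 7791, 7267 and 5588 CPM against 8882, 9109 and 8505 CPM (adjusted p = 0.881).

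Cell type markers were given beside these lists, because the discs were whole leaf. All 7 mesophyll and all 10 bundle sheath markers were detected, and none passed in edgeR or DESeq2 or reached an unadjusted p under 0.05. The summed mesophyll level was 34616 to 40507 CPM in the PGR5-low set and 41440 to 47463 CPM in the high-in-both set, without overlap. That sum leaves out pyruvate, phosphate dikinase 2, a mesophyll enzyme at 34069, 51717 and 35721 CPM against 41738, 43637 and 43957 CPM. The sets overlapped on that gene, so the separation is one of the markers summed. They overlapped too on the most abundant marker in the sum, phosphoenolpyruvate carboxylase 1-like (LOC117854270). It stood at 29735, 26434 and 25451 CPM against 31130, 34390 and 29026 CPM. Of the 7 mesophyll markers, 2 lay below the high-in-both set in every PGR5-low library. The summed bundle sheath level was 14779 to 21667 CPM against 18234 to 21070 CPM, with WT 2 highest of the 6, and all 10 bundle sheath markers had fitted values below 0, with a median log2 fold change of -0.36. The summed epidermal level was 3561 to 4336 CPM against 4421 to 4961 CPM, also without overlap. The summed level of lignifying tissue went the other way without overlap, at 294 to 309 CPM against 274 to 280 CPM. Its 14 genes were divided, with 8 fitted values above 0 and 6 below. Their median log2 fold change was 0.25, and it ran from 0.07 to 0.32 without each library other than WT 2. It turned to -0.13 without WT 2, to -0.14 with the genotype label as a term and to -0.18 in limma-voom. Markers of dividing cells (32 genes), lignifying tissue (14 genes) and guard cells (5 genes) gave 0 calls in edgeR and in DESeq2, with 3, 2 and 0 genes at an unadjusted p under 0.05. The part of cell composition in the called differences was not tested.

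Stress and growth lists outside photosynthesis mostly lay near the median of all genes. The median log2 fold change was -0.05 for heat shock proteins (85 genes). It was -0.01 for WRKY, NAC and ERF transcription factors (142 genes), -0.07 for jasmonate genes (31 genes) and 0.01 for abscisic acid genes (23 genes). Reactive oxygen scavengers (38 genes) had a median of -0.17. Catalase isozyme 1 (LOC117851458), which breaks down hydrogen peroxide, stood at 325, 469 and 503 CPM against 267, 273 and 289 CPM, without overlap, and did not pass (log2 fold change 0.57, SE 0.17, adjusted p = 0.669). No gene in these 5 lists was called by edgeR, where 5, 5, 1, 1 and 3 genes reached an unadjusted p under 0.05. DESeq2 called 1 of the transcription factors and 0 in the other lists. Photorespiration (24 genes), the respiratory chain (55 genes), starch, sucrose and sugar transport (74 genes), nitrogen assimilation (21 genes) and clock and light signalling (43 genes) also held 0 calls in edgeR and in DESeq2. Their medians were -0.04, -0.06, -0.03, -0.04 and 0.05, and 0, 0, 5, 1 and 4 of their genes reached an unadjusted p under 0.05.

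For cytosolic ribosomal proteins (180 genes) the median log2 fold change was -0.27, and 164 had fitted values below 0. None was called by edgeR, by DESeq2 or by limma-voom, and 4 reached an unadjusted p under 0.05. In 22 of them (12.2%) every PGR5-low library lay below the high-in-both set, against 4.42% of all genes, and in 1 (0.556%) above it, against 8.04%. The median was -0.12 without ndhO 2. The summed level was 4200, 3590 and 4321 CPM in the PGR5-low libraries against 5497, 4337 and 4091 CPM, so the sums overlapped. Single ribosomal protein genes are uncertain, as their copies may share reads.

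The authors' deposited table compares genotype labels and not these sets. In the authors' deposited table none of the 28 called genes had an adjusted p under 0.05 for pgr5 or for ndhO against WT, where 451 and 0 genes did over the whole table. For CRK28 the authors' deposited table gives a log2 fold change of -4.26 for ndhO (adjusted p = 0.891) and 2.59 for pgr5 (adjusted p = 0.513). For JMJ25 the authors' deposited table gives -0.29 and -0.27.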

How the data were processed

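Whole-leaf polyadenylated RNA was read from stranded libraries, as the labels' protocols say. The submitters' processing notes list edgeR 4.4.1, limma 3.62.2, StringTie 2.2.3, Trim Galore 0.6.7 and FastQC 0.11.9. No aligner or genome build is named there, so coordinates and sequences are not printed. The deposited table holds whole-number counts for 17987 genes, used here unchanged. Per the file headers it also holds the authors' corrected log2 CPM and log2 fold changes, their t and B statistics (read as a score) and their p-values. RefSeq (GCF_005286985.2) matched 17558 genes and served for class and gene order.

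The counts were fitted once over 9 libraries by edgeR 4.0.16 (R 4.3.3) with set as the only term: TMM, the default filter (17970 genes kept), robust quasi-likelihood, Benjamini-Hochberg at 0.05. The common biological coefficient of variation was 0.337. Each SE was derived from the test, as the size of the log2 fold change divided by the square root of the F statistic. PGR5 and NdhO placed the libraries and were left out of all counts. P-values measure the spread among libraries within the sets. The labels call libraries biological replicates of a genotype label, and each set mixes labels. Counting intervals (95%, exact) and floors (3 counts pooled over a set) cover counting error only. The procedure was tested on simulated data, with fold changes planted in well-counted genes only. Presence against absence of a transcript was not simulated, so that test does not cover such calls. Alternatives were other scalings, filters, terms and thresholds, DESeq2 1.42.0, limma-voom (limma 3.58.1) and leaving out each library. The labels give no sequencing batch.

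The members and the 32 gene lists, made from words in the gene descriptions, were chosen with earlier results of these data known. Named genes are described genes called with sets that do not overlap and a mean of at least 5 CPM, and from each list its called genes of lowest p or its most abundant member. Other named genes were chosen after their values were seen.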

Additional observations from a re-analysis of the deposited data

Results flagged for a closer look

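For 5 genes called between the PGR5-low and the high-in-both set, the PGR5-low and NdhO-low sets also differed past the threshold in a direct test (edgeR, adjusted over all genes). LOC117846273 differed by a log2 fold change of 12.11 (adjusted p = 0.000504), fitted against a set at 0 counts, so its size depends on the prior count. LOC117855456 differed by -9.12 (adjusted p = 0.00864), with the PGR5-low set at 0 counts. JMJ25 (LOC117837736) was higher in the PGR5-low set by 1.17 (adjusted p = 0.013), MNB1B-like (LOC117865750) lower at -0.94 (adjusted p = 0.0189), and LOC117839591 lower at -1.0 (adjusted p = 0.0248). All 3 PGR5-low libraries showed the direction against all 3 NdhO-low libraries in each of the 5 genes. With the genotype label or the replicate number as a term, no gene differed past the threshold between both low sets. No group here has more than 3 libraries, so single libraries were not tested as outliers.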

How the results depend on the processing

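All 28 called genes kept their sign in all 18 settings tried, and 6 kept their call in all of them: LOC117846273, LOC117846119, CRK28, LOC117855710, RdRP3 (LOC117857235) and the GNOM-like gene. Placement of libraries was the same at 50 and 150 CPM and on TMM-scaled totals. Against the high-in-both set, higher and lower calls were 81 and 21 with DESeq2, 9 and 1 with limma-voom, 13 and 1 with the genotype label as a term, and 14 and 1 with a replicate block. Lower calls were 2 at an adjusted p of 0.01. Leaving out each library gave 16 to 25 higher and 1 to 5 lower.

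Against the NdhO-low set, higher and lower calls were 195 and 139 with DESeq2, 0 and 0 with the label term and 0 and 0 with the replicate block. Lower calls were 5 with limma-voom. At an adjusted p of 0.01 they were 1 and 5, and at 0.10 there were 26 higher. Leaving out each library gave 2 to 56 higher and 6 to 59 lower. Deviations of same-numbered libraries correlated at 0.02, 0.03 and 0.1 between the PGR5-low and high-in-both sets and at -0.18, -0.27 and 0.1 between the PGR5-low and NdhO-low sets. In neither comparison did every pair exceed 0.1, and the labels tie no number to a shared batch, so the numbers were not taken to pair the libraries.

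By list, DESeq2 called 6 NLR, 6 transposase-derived and 3 receptor-like kinase genes, and 1 each for the C4 cycle, for transcription factors and for chlorophyll and carotenoid synthesis. Limma-voom called 0 NLR and 0 transposase-derived genes. The label term gave 0 NLR, 1 transposase-derived, 1 silencing and 0 epidermal calls, the block 1, 1, 1 and 0, and the 6 libraries alone 1 transposase-derived and 0 epidermal calls. Leaving out each library gave 1 to 3 NLR, 1 to 2 transposase-derived, 1 to 3 silencing and 0 to 1 epidermal calls. Genes whose sets do not overlap numbered 152 higher and 68 lower with a 1.5-fold gap, and 93 and 35 with a 2-fold gap.

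Among the most abundant members of uncalled lists, near-0 fold changes turned sign when single libraries were left out. The log2 fold change ran from -0.37 to 0.13 for LOC117856781, from -0.05 to 0.14 for LOC117840633, from -0.00 to 0.16 for LOC117854423, from -0.11 to 0.14 for LOC117838467, from -0.07 to 0.15 for LOC117850592 and from -0.04 to 0.09 for LOC117840464. For LOC117850592 it was -0.21 with the label term. The causes were not tested. At 0 counts the depth allows only a bound, set here by 3 pooled counts.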
